A study of Mus musculus with 2 samples.

Results

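The genes described here are 10 markers and regulators of the intestinal crypt stem cell, most of them targets of Wnt signalling, measured in colon RNA of wild-type mice and of mice with an interleukin-9 (IL-9) transgene. IL-9 is a type 2 cytokine that drives mucosal mast cells. The 10 genes were chosen by name (Lgr5, Ascl2, Axin2, Sox9, Ephb2, Ephb3, Tnfrsf19, Lrig1, Bmi1 and Cdca7), and all probe sets that the array annotation gives to these symbols alone were used. A probe set is the group of short oligonucleotides that reads 1 transcript on an Affymetrix array. Of the 10 genes, 9 were found, with 18 of the 20380 probe sets that carry a single gene symbol, among 12393 genes in all. Ephb2 was not analysed here, because no probe set carried its symbol alone.

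Each group was 1 pool of distal colon RNA from 4 mice on 1 array. The control pool came from wild-type mice of the inbred FVB strain, which the series text spells TVB. The other pool came from IL-9 transgenic mice, whose array carries the title Tg5, and both were bred under specific pathogen-free conditions. The background strain of the transgenic mice, the promoter of the transgene, and the age and sex of the mice are not given in the sources used here. With 1 array a group there is no spread between mice, so no test was made and every difference is a description of these 2 arrays.

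In the colon, Wnt proteins bind Frizzled receptors and LRP co-receptors at the crypt base, which stabilises β-catenin and lets it act with TCF factors on target genes. R-spondins amplify the signal through Lgr receptors, and negative-feedback targets such as Axin2 limit it. Cells at the crypt base that keep high Wnt activity include the stem cells that renew the epithelium. As they move up the crypt, the signal declines and the cells differentiate into colonocytes, goblet cells and enteroendocrine cells.

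The promoters of 2 genes are shown, that of Cdca7 because it had the largest ratio in size and that of Axin2 because it is a common readout of Wnt activity. They are RefSeq sequences of build GRCm38.p6, plus strand, from 250 bases before to 50 bases after the start site, at chr2:72475969-72476268 for Cdca7 and chr11:108920099-108920398 for Axin2. Capitals mark a match to a searched motif.
Cdca7: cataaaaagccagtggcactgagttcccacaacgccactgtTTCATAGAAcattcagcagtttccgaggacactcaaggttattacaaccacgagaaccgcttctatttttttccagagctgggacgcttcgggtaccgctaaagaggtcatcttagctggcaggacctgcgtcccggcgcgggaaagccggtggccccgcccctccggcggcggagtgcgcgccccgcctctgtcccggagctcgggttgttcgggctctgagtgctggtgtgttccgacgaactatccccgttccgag
Axin2: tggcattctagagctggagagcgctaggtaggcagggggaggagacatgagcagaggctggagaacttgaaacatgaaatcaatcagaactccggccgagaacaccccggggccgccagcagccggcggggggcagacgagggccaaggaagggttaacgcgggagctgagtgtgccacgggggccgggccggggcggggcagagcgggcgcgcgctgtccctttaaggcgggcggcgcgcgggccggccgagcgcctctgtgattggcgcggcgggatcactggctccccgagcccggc
The motifs searched, on both strands, were the TCF/LEF core CTTTGAT, the E-box CAGCTG that proteins of the Ascl2 class can bind, and the STAT motif TTCNNNGAA, since STAT factors carry the IL-9 signal. The capitals in Cdca7 are a STAT motif that begins 209 bases before the start site. None of these motifs was in the Axin2 window. No promoter of Lgr5 or Sox9 was available, so these 2 genes were not searched. Among the 9 promoters listed for 8 of the 10 genes, the TCF/LEF core was in 1 (Tnfrsf19), the E-box in 2 (Ephb3 and Tnfrsf19) and the STAT motif in 2 (Cdca7 and Tnfrsf19), and no match overlapped another. Over all 32851 promoters of this length, 3.73% held the TCF/LEF core, 16.3% the E-box and 8.3% the STAT motif. A match is a description of letters and not a binding site.

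The deposited values were already on a like scale, with a trimmed mean of 99.99 on each array. Median intensities were 34.0 (wild type) and 34.2 (transgenic), and 60.2% and 59.8% of probe sets exceeded a floor of 19.8, the 40th percentile of intensity over both arrays, below which values were set to the floor. All 18 pan-epithelial genes were measured, with a median log2 ratio of 0.02, and their summed intensities were 26787 (wild type) and 27040.5 (transgenic). Other RNA sources were not equal. All 13 measured pancreatic acinar genes had log2 ratios of −1 or below, with summed intensities of 32515 and 1686, and 5 of 6 measured B cell genes and 5 of 9 measured mast cell genes were at least 2-fold higher, with summed intensities of 241 and 995 for B cells and of 267 and 3392 for mast cells. Sums use deposited intensities without the floor. They cover the brightest probe set of each list gene on the array, measured or not (7 B cell and 11 mast cell genes). The part of these differences in RNA sources in the values below was not tested.

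None of the 8 measured crypt genes differed by 2-fold between the pools. Lgr5 and Sox9 were modestly higher in the transgenic pool, Cdca7 was lower, and Ascl2, Axin2, Ephb3, Lrig1 and Bmi1 lay near a log2 ratio of 0. A gene was called measured when its brightest probe set exceeded the floor on at least 1 array, and each of the 8 did so on both, so no gene entered through 1 pool alone. Of all 8346 measured genes, 0.767% were higher and 0.611% lower in the transgenic pool by at least 2-fold, so a count of 0 among 8 lies near that background. The median log2 ratio, transgenic against wild type, was 0.06 for the 8 genes and 0.04 for all measured genes. Of the 8 ratios 5 were positive, and of all measured genes 56.0% had positive ratios, the share beside which counts of signs below are to be read. In bulk tissue, more crypt cells and more RNA per crypt cell cannot be told apart.

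**Figure D1:**
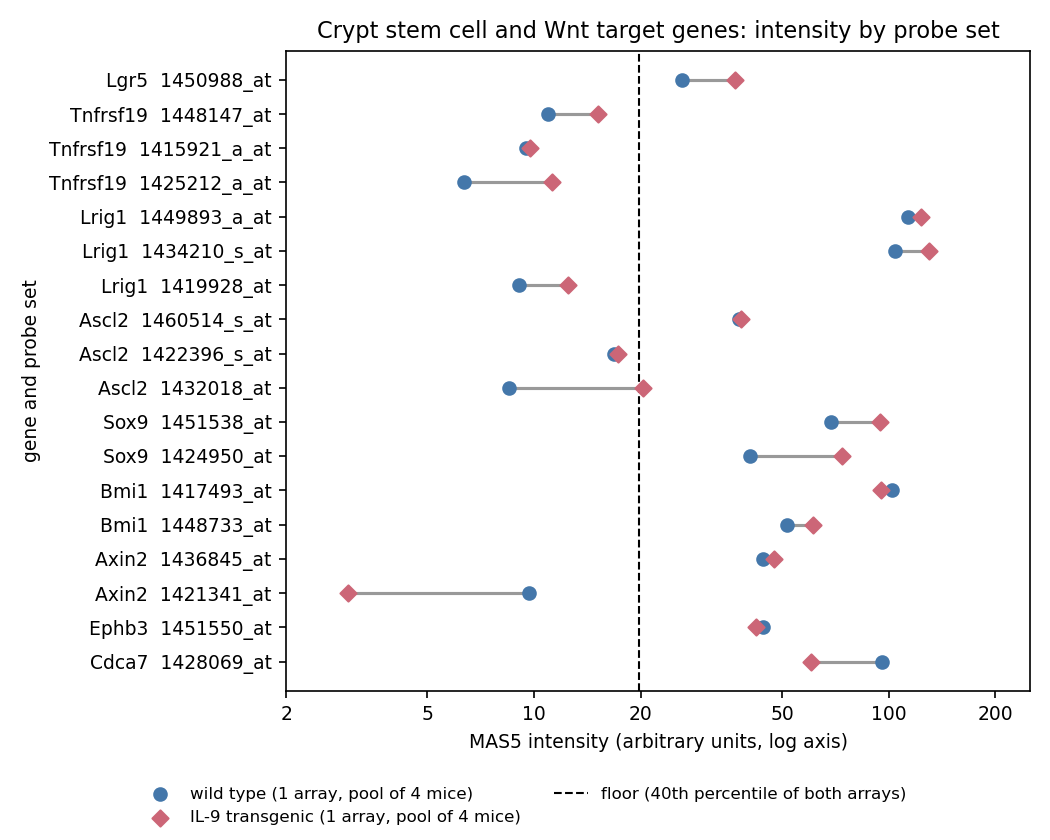
MAS5 intensity (arbitrary units, log axis) of each probe set of the 9 genes found, with 1 circle for the wild-type pool and 1 diamond for the transgenic pool; the dashed line is the floor of 19.8. Lgr5 and both Sox9 probe sets lie higher in the transgenic pool and Cdca7 lower, while all 3 Tnfrsf19 probe sets lie below the floor.

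Lgr5, the R-spondin receptor that marks crypt base columnar stem cells, is read by 1 probe set (1450988_at), which gave 26.1 in wild type and 37.0 in transgenic colon. The transgenic pool was 1.42-fold higher, a log2 ratio of 0.50, which lies at percentile 94.1 of the ratios of all measured genes. Both Lgr5 values exceeded the floor.

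Lrig1, a transmembrane inhibitor of EGF family receptors that restrains stem cell growth, had 2 probe sets above the floor. The brighter (1449893_a_at) read 113 in wild type and 123 in transgenic colon, a log2 ratio of 0.12. Its companion (1434210_s_at) read 104 and 130, a log2 ratio of 0.32. Both were a little higher in the transgenic pool, and they differed from each other by 0.20. The remaining Lrig1 probe set (1419928_at) was below the floor at 9.06 and 12.5.

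Tnfrsf19, the TNF receptor family member also called Troy that marks Lgr5-positive cells, was not measured. Its probe set of highest signal (1448147_at) read 10.9 in wild type and 15.2 in transgenic colon. The others read 9.48 and 9.71 (1415921_a_at) and 6.34 and 11.2 (1425212_a_at). All 6 values are under the floor, so no ratio is given and the gene's level could not be compared at this signal.

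Among the transcription and chromatin regulators, Sox9 was higher in the transgenic pool by both of its probe sets. Sox9 encodes an HMG-box factor of the crypt base that is a Wnt target. Its brighter probe set (1451538_at) read 68.9 in wild type and 94.4 in transgenic colon, 1.37-fold higher, and the other (1424950_at) read 40.6 and 73.7, 1.81-fold higher. Transgenic colon was the higher pool in both, with log2 ratios of 0.45 and 0.86 that differ by 0.40. Both are annotated to the same transcript record. Like all probe sets here they read the same pooled RNA, so they are not independent samples of the mice.

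A measure of how far probe sets of a gene disagree puts these values in scale. Among 1901 genes with exactly 2 probe sets that exceeded the floor in both pools, the ratios of the pair differed by a median of 0.23, and 95% of pairs differed by no more than 0.78. The signs of the pair were opposite in 43.7% of these genes. In 30 of the 1901 genes (1.58%), both probe sets had a ratio at or above the lower Sox9 value, a count made after the Sox9 values were seen. The pooled SD between probe sets of a gene was 0.30 in the intensity range of the measured crypt genes, which holds no spread between mice.

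Sox9 is also made in pancreatic ducts and in enteric glia. The pancreas regulators Pdx1 and Onecut1 and the hormone gene Ins2 lay under the floor in both pools, as did the glial genes S100b and Gfap. The 3 measured members of the duct and islet list, Cftr, Gcg and Sst, are also made by colon epithelium, and the glial gene Sox10 was barely over the floor in wild type alone, so neither list measured these sources. Their part in the Sox9 ratio was not tested.

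Ascl2, the bHLH factor that maintains the Lgr5-positive stem cell state, was near equal in the 2 pools. Its brightest probe set (1460514_s_at) read 37.9 and 38.4, a log2 ratio of 0.02. A further set (1422396_s_at) was under the floor at 16.8 and 17.3. The remaining set (1432018_at) read 8.50 in wild type and 20.2 in transgenic colon, barely over the floor, so its ratio of 0.03 is only a lower bound. Without a floor its log2 ratio would be 1.25, from values of which 1 is below the floor and 1 just above it.

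Bmi1, a ring-finger subunit of Polycomb repressive complex 1 that is linked to slow-cycling progenitors, had probe sets that went opposite ways. The brighter (1417493_at) read 102 in wild type and 95.3 in transgenic colon, a log2 ratio of −0.11. The other (1448733_at) read 51.6 and 61.1, a ratio of 0.24. Their mean was 0.07, and the difference between them, 0.35, was larger than either ratio, so no direction can be given.

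Axin2, a scaffold protein of the β-catenin destruction complex that is itself induced by β-catenin, is a common readout of Wnt activity. Its probe set above the floor (1436845_at) read 44.2 in wild type and 47.6 in transgenic colon, a log2 ratio of 0.11. The other set (1421341_at) was below the floor in both pools, at 9.70 and 2.98. The 2 pools were thus near equal in the measured Axin2 signal.

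Ephb3, a receptor tyrosine kinase that positions cells along the crypt axis through ephrin-B ligands, was read by 1 probe set (1451550_at). Its intensity was 44.3 in wild type and 42.1 in transgenic colon, a log2 ratio of −0.07. That is well under the spread between probe sets of a gene.

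Cdca7, a Myc-responsive gene whose protein brings the chromatin remodeller HELLS to DNA, had the largest ratio in size among the 8. Its probe set (1428069_at) read 95.9 in wild type and 60.5 in transgenic colon, 0.631 times the wild-type value. The log2 ratio of −0.66 lies at percentile 1.75 of all measured genes. By its brightest probe set, Cdca7 was the only gene of the 8 beyond 1.5-fold, and the fainter Sox9 probe set also passed it, a threshold that 4.09% of measured genes passed upward and 2.85% downward. No second probe set was available to compare.

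**Figure D2:**
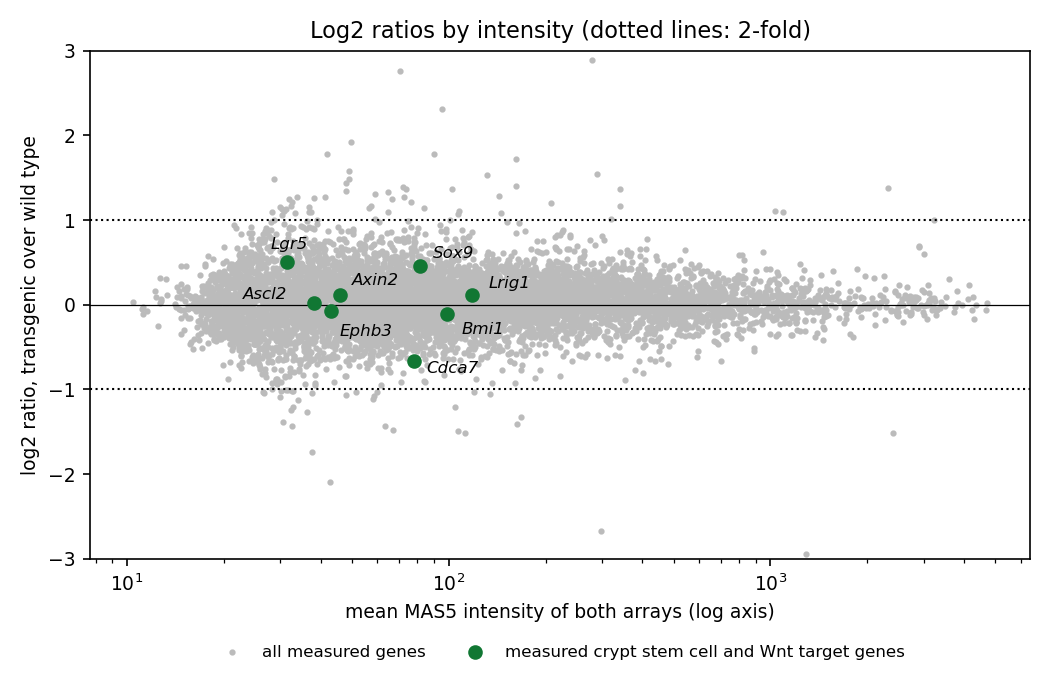
Log2 ratio of transgenic over wild type against mean intensity (log axis) for 8346 measured genes (grey) and the 8 measured crypt genes (green); dotted lines mark 2-fold and 23 genes lie outside the plotted range. All 8 genes lie between the dotted lines, with Lgr5 and Sox9 at the upper side of the grey band and Cdca7 at the lower.

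The position of the 8 genes was little different when only genes of like signal were considered. In the 3619 measured genes with a mean intensity from 31.5 to 118, the range of the 8, the central 95% of log2 ratios lay between −0.63 and 0.77. Lgr5 and Sox9 lay inside that range and Cdca7 just outside it. In this range 0.995% of genes were higher by 2-fold or more and 0.663% were lower.

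The other genes of the Wnt pathway were described by the same measures, in lists chosen with earlier results of these data known. The 5 lists hold 103 different genes, of which 94 had a probe set and 60 were measured. None of the 60 reached 2-fold in either direction, 27 had positive and 33 negative log2 ratios, and the median was −0.01. At 1.5-fold, 2 were higher and 2 lower.

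Of the Wnt ligands, R-spondins and secretion factors, 5 of 17 on the array were measured and 4 of these had negative ratios, with a median of −0.29. Porcn, the enzyme that attaches the lipid to Wnt proteins, read 29.9 in wild type and was at the floor in transgenic colon, a log2 ratio of −0.60 or below. Wls, which carries Wnt proteins to the surface, had −0.29, and its 2 other probe sets were also negative. The ligand genes Wnt5a and Wnt4 had −0.38 and 0.29, and a second Wnt5a probe set had −0.02. Wnt6, at the floor in transgenic colon, had −0.03 or below. The median of −0.29 is thus the value of Wls, which is not a ligand. Most ligands, Wnt3 and Wnt2b among them, were below the floor in both pools.

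Of 9 measured receptors, 7 had negative and 2 positive ratios, where 56.0% of all measured genes were positive, and the median was −0.18. Ryk, a Wnt co-receptor, had −0.45, and Lrp6, the co-receptor of Frizzled proteins, had −0.35, each with a second probe set on the same side of 0. The Frizzled genes Fzd8 and Fzd4 had −0.31 and 0.30. None reached 1.5-fold.

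The inhibitors went both ways, with 3 of 8 measured genes positive. The secreted Frizzled-related genes Sfrp4 and Sfrp2, made by stromal cells, had −0.67 and −0.39. Rnf43, a ubiquitin ligase that removes Frizzled receptors and is itself a Wnt target, was under the floor in wild type (18.5) and read 29.9 in transgenic colon, a log2 ratio of 0.60 or above. Dact1, which acts on Dishevelled, had 0.30.

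Genes of β-catenin and its destruction complex had a median of 0.03 over 21 measured members. Ctnnb1, β-catenin itself, read 2018 and 2016. Tcf7l2, the main TCF factor of gut epithelium, had −0.51 by its brightest probe set, but its 3 others ran from −0.63 to 0.09. The kinase gene Csnk1d had 0.43 with other probe sets from −0.17 to 0.24, the scaffold gene Axin1 had 0.37, and the Dishevelled gene Dvl2, at the floor in transgenic colon, had −0.39 or below. Ctnnb1 was named after its values were seen.

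Further Wnt target genes had a median of 0.14 over 18 measured members, 11 of them positive, a share near the 56.0% of all measured genes. Plaur, the urokinase receptor, had the largest ratio at 0.71, from 24.9 to 40.7. Myc, the growth regulator, had 0.41, from 69.6 to 92.3, and the zinc-finger gene Zfp703 had −0.51. Plaur is also made by myeloid cells, and the part of such cells in its ratio was not tested.

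**Figure D3:**
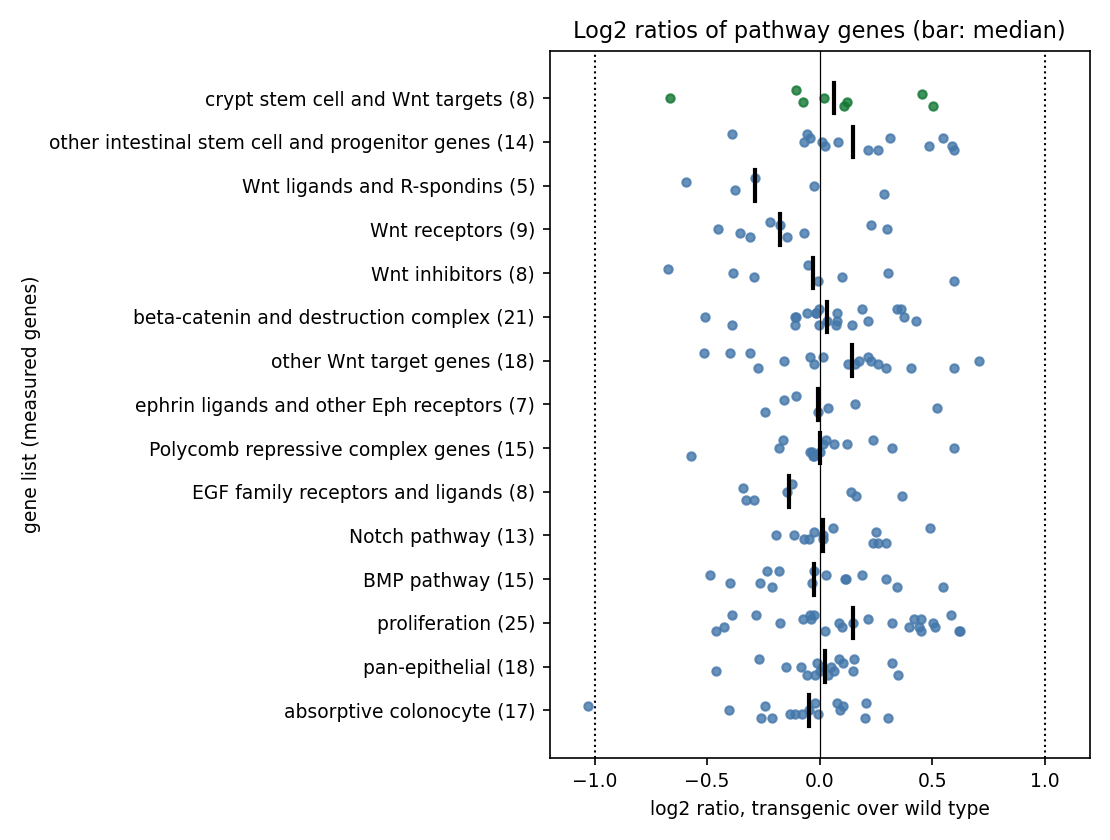
Log2 ratio of transgenic over wild type for each measured gene of the crypt stem cell and Wnt target genes (green) and of related lists (blue), with the number measured in brackets, a black bar at the median and dotted lines at 2-fold. The medians run from −0.29 for Wnt ligands, R-spondins and secretion factors to 0.15 for proliferation and other stem cell genes. Only the colonocyte list has a point beyond 2-fold.

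Other stem cell and progenitor genes lay on the positive side in 10 of 14 measured cases, with a median of 0.15, beside 56.0% of all measured genes with positive ratios. Rnf43, given above with the inhibitors, had the highest ratio. Rnf43, Ets2 and Cd44 are also counted among the further Wnt targets, so the counts of these lists overlap. Slc12a2, a chloride cotransporter enriched in crypts, read 639 in wild type and 959 in transgenic colon, a log2 ratio of 0.59, whereas its 2 further probe sets gave 0.08 and 0.29. Phlda1 had 0.55. Hopx, a homeodomain protein linked to slow-cycling stem cells, had 0.49, and its second probe set had 0.44. The lowest ratio was that of Fstl1, a secreted follistatin-like protein, at −0.39 with a second probe set at 0.46. None reached 2-fold, and Msi1, Tert and Dclk1 lay under the floor in both.

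The ephrin and Eph genes, partners of Ephb3, had a median of −0.01 over 7 measured members. Ephb4 had 0.52, from 70.0 to 101, and the ephrin-A gene Efna1 had −0.24. The ephrin-B ligand genes Efnb1 and Efnb2 had 0.16 and −0.16 by their brightest probe sets, but their other probe sets ran from −0.61 to −0.20 and from 0.11 to 0.31, so neither direction holds across probe sets.

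Polycomb genes, partners of Bmi1, had a median of 0.00 over 15 measured members. Phc2, of Polycomb complex 1, had 0.60, and its second probe set had 0.31. Cbx2, another subunit of that complex, had −0.57, and the ring-finger genes Pcgf1 and Pcgf6 had 0.32 and 0.24. EGF family genes, the receptors that Lrig1 restrains and their ligands, had a median of −0.13 over 8. Hbegf had 0.37, Tgfa −0.34, Btc −0.33 and Egfr −0.29. The 2 other Egfr probe sets were nearer 0, at −0.07 and −0.04, and a second Hbegf probe set had 0.47.

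Notch genes, which set the balance of absorptive and secretory cells, had a median of 0.02 over 13. Atoh1, the factor that starts the secretory fate, had 0.49, from 248 to 348, Notch1 had 0.30 and Hes1 had 0.26. BMP genes, whose signal opposes Wnt along the crypt axis, had a median of −0.03 over 15. Bmp1, a protease and not a BMP ligand, had 0.55, and Grem1, a BMP antagonist of the stroma around the crypt base, had −0.49.

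Proliferation genes stand beside Cdca7, since the gene is active in dividing cells. Of 25 measured members 16 had positive ratios, a share near the 56.0% of all measured genes, none reached 2-fold and the median was 0.15. Mki67 read 84.9 and 131, a log2 ratio of 0.62, Ube2c had 0.62, Ccna2 had 0.58, with a second probe set at 0.10, and Top2a had 0.51. The other 9 members had negative ratios, among them the replication gene Mcm5 at −0.42 and Uhrf1, a factor of DNA methylation, at −0.39. Hells, the partner of Cdca7, had −0.46, from 48.4 to 35.2, and is also one of these 9. Birc5, Mcm7, Plk1 and Cdca4, also among the 9, lay between −0.07 and −0.03. Another replication gene, Mcm2, had 0.45. Mki67, Ube2c, Ccna2 and Top2a were named because their ratios were the largest in size in this list. The other genes of this list were named after their values were seen.

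Differentiated colonocyte genes had a median of −0.05 over 17 measured members. Scnn1g, a sodium channel subunit of surface cells, read 40.4 in wild type and was at the floor in transgenic colon, a log2 ratio of −1.03 or below, and no other member reached 2-fold.

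**Figure D4:**
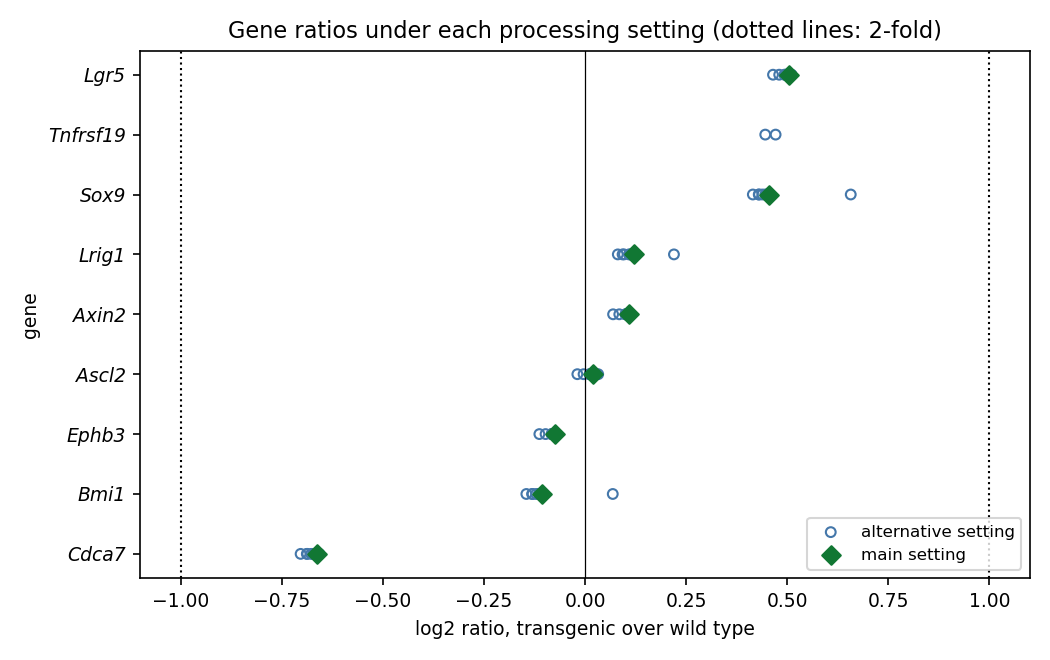
Log2 ratio of each gene under the main processing (diamond) and under each alternative that gave a value (open circles), with dotted lines at 2-fold. Lgr5 and Sox9 stay above 0 and Cdca7 below 0 in every setting that gave a value, Ascl2 and Bmi1 lie on both sides of 0, and Tnfrsf19 has a value only with a lower floor or none.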

How the data were processed

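The authors deposited linear intensities, 1 for each probe set on each array, computed with MAS5 (per the submitters' processing notes, which name no version). Biotin-labelled RNA came from 5 ug of total RNA per pool, per the labels' protocols. Trimmed means were 99.99 on both arrays, so no further scaling was made. Of 22690 probe sets, 64 were controls. Symbols came from the platform annotation, and gene IDs of 20351 of 20380 probe sets were found in the GRCm38.p6 RefSeq table, with 0 names changed. The brightest probe set stood for its gene. Values under the 40th percentile (19.8) were set to that floor, and log2 ratios of transgenic over wild type were taken; against the floor a ratio is a bound. A fold of 2 counted as a difference. The number of arrays limits the precision.

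Members and lists were chosen with earlier results of these data known. All members were named. In each of 20 lists, genes past 2-fold and up to 4 others with the largest ratios were eligible. Fstl1, Wnt6, Ets2 and Cd44 were named outside this rule, as were genes under the floor in both pools. Ctnnb1 and most genes of cell division were also named outside it, as stated. Python 3.11.15, numpy 2.4.6, pandas 2.3.3 and statsmodels 0.14.6 were used, and the procedure was tested on simulated data. The 11 alternatives covered scaling, floor, choice of probe set and fold.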

Additional observations from a re-analysis of the deposited data

How the results depend on the processing

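No paired analysis was possible because each group has 1 array. The counts of crypt genes past 2-fold, higher or lower, were 0 in the 10 alternatives that kept 2-fold; at 1.5-fold, 1 gene was lower (Cdca7) and 0 were higher. The median over crypt genes ran from 0.01 (60th-percentile floor, over 4 genes) to 0.11 (20th-percentile floor, over 9). Lgr5 ranged from 0.46 to 0.51, Sox9 from 0.41 to 0.66 (the mean of its probe sets) and Cdca7 from −0.70 to −0.66. Lgr5 had no value under the 60th-percentile floor. Lgr5 and Cdca7 have 1 probe set each, so the choice of probe set could not change their ratios. The fainter Sox9 probe set (1424950_at) moved from 0.86 to 0.42 under the higher of these floors, which lies above its wild-type value. Signs changed with the setting for Ascl2 (−0.02 to 0.03) and Bmi1 (−0.15 to 0.07). For the Wnt pathway lists together, the 2-fold counts were 0 higher and 1 lower under the lower floor, and 5 and 4 without a floor, where low values enter. Among all genes the counts rose from 64 and 51 to 202 and 258 at the 20th percentile.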

Other observations

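Genes of cell division were regrouped by phase after their values were seen, with Dnmt1 added from outside the proliferation list, so the following are values with no test. Of 14 measured genes of mitosis and other cell cycle steps, 10 had positive log2 ratios and the median was 0.43. Cdk1 had 0.44, Ccnb2 0.45 and Cdca5 0.50, while Bub1b, Cdca4, Plk1 and Birc5 were below 0. Bub1b was at the floor in transgenic colon and Aurka, a positive gene, in wild type, so their ratios are bounds. Of 12 genes of DNA replication and methylation maintenance, 7 were positive and the median was 0.06. The largest positive ratios were those of the helicase gene Mcm2 at 0.45, with another probe set at 0.18, and of Rrm2 at 0.32. Negative members were the replicative helicase genes Mcm5 (−0.42), Mcm3 (−0.28) and Mcm7 (−0.04), Hells (−0.46) and Uhrf1 (−0.39), which recognises hemimethylated DNA. Cdca7 was negative as well, while Dnmt1, the maintenance methyltransferase, had 0.17, with another probe set at 0.41. Probe sets disagreed within this group: Mcm4 had 0.03 and −0.62, and Mcm6 had 0.15 and −0.44. The other probe sets of Mcm3 ran from −0.46 to 0.36 and those of Mcm7 from −0.30 to 0.24, so neither negative ratio holds across probe sets.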
